A study of Mus musculus with 20 samples.

Results

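The RNAs of 10 genes of the actin skeleton and the membrane-bound cell cortex were followed in RNA from growing cortical axons and from their cell bodies. They were chosen by name, with earlier results of these data known, as 10 of the 55487 genes in the deposited count table. All 10 were found there and passed the filter on low counts in every comparison. The libraries came from subcerebral projection neurons, the cortical neurons whose axons run to brainstem and spinal cord, in mice at postnatal day 1. Growth cones, the motile tips of growing axons, were taken from brainstem and spinal cord, and somata, the cell bodies, from cortex. Each compartment had 5 wild-type (WT) libraries and 5 libraries labelled KO, meaning null for Bcl11b, which encodes a transcription factor that these neurons need for axon outgrowth. The labels used here give neither strain nor the way the null allele was made, and do not say whether libraries came from separate animals, so the p-values measure only the spread between these libraries.

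Growth cones advance by polymerising actin at their front edge and disassembling it behind. Profilins load actin monomers with ATP and hand them to growing filaments, cofilin severs old filaments, and drebrin binds the sides of filaments and links them to microtubules. GAP-43, BASP1, MARCKS and MARCKSL1 are acidic, lipid-anchored proteins of the inner membrane face that bind phosphoinositides there, and several of them are substrates of protein kinase C. Beta-actin mRNA is a standard example of a transcript carried into axons and translated there.

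The 10 genes comprised the cytoplasmic actins Actb (ENSMUSG00000029580, chromosome 5, 142903115 to 142906754, minus strand) and Actg1 (ENSMUSG00000062825, chromosome 11, 120345690 to 120348542, minus strand). The actin-binding proteins were encoded by Cfl1 (ENSMUSG00000056201, chromosome 19, 5490455 to 5495201, plus strand), Pfn1 (ENSMUSG00000018293, chromosome 11, 70651850 to 70654644, minus strand), Pfn2 (ENSMUSG00000027805, chromosome 3, 57841895 to 57848079, minus strand) and Dbn1 (ENSMUSG00000034675, chromosome 13, 55473429 to 55488111, minus strand). The membrane-cortex genes were Gap43 (ENSMUSG00000047261, chromosome 16, 42248442 to 42340651, minus strand), Basp1 (ENSMUSG00000045763, chromosome 15, 25363277 to 25413764, minus strand), Marcks (ENSMUSG00000069662, chromosome 10, 37133375 to 37138920, minus strand) and Marcksl1 (ENSMUSG00000047945, chromosome 4, 129513581 to 129515985, plus strand). Coordinates are those of the deposited table, which match the mouse build GRCm38, and counts were summed over all exons of each gene, coding and untranslated.

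A regulatory sequence is shown for each cytoplasmic actin. Both RNAs were lower in growth cones but to different extents, and a part of these sequences in that was not tested. The stretch of the Actb 3′ untranslated region from base 11 to base 40 after the stop codon (GRCm38, chr5:142903758-142903787, minus strand) holds the motif ACACCC, given in capitals, which is part of the zipcode that directs beta-actin mRNA to the cell edge.
Actb 3′ UTR: actgagctgcgttttACACCCtttctttga
The search covered 19934 genes with an annotated 3′ untranslated region of at least 100 bases, in the longest such protein-coding transcript of each. Of these, 589 (2.95%) hold ACACCC on the transcript strand within its first 100 bases, and Actb was the only one of the 10 genes that did. Cfl1 has a match further on, at base 302. The Actg1 promoter (RefSeq, GRCm38.p6, chr11:120348556-120348605, minus strand) holds a CArG box, in capitals, the element bound by serum response factor, starting 90 bases before the transcription start.
Actg1 promoter: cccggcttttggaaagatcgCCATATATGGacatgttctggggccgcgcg
A CArG box lies on either strand in 535 of 32851 RefSeq promoter windows of 300 bases (1.63%), and Actg1 was the only one of the 7 genes with a window (Actg1, Cfl1, Pfn1, Pfn2, Dbn1, Basp1 and Marcksl1) that held one. The motif TATAAA, found in 13.62% of the windows, was in 0 of the 7. Actb, Gap43 and Marcks had no window, so their promoters were not searched. A match describes these letters only.

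Library totals were 21657575 to 29323028 counts in growth cones and 18962308 to 51205154 in somata, and the 10 genes were deeply covered, with 4771 counts in the library lowest for any of them (Dbn1, WT growth cones, experiment 11). Bcl11b itself did not bear out the genotype labels. Its level was 587, 806, 784, 788 and 542 CPM in the WT somata but 1181, 1147, 1122, 1074 and 1221 CPM in the somata labelled KO, higher in all 5. In growth cones the ranges overlapped, with 72.6 to 123 CPM in WT and 66.8 to 141 CPM in those labelled KO. Counts over the whole gene cannot show whether a deleted part is missing, so every direction between genotypes below refers to libraries as labelled. Levels are in CPM, counts scaled to a common library size with TMM factors over all 20 libraries. Values follow the experiment numbers 7, 8, 9, 10 and 11 for growth cones of either genotype, 12, 14, 22, 25 and 26 for WT somata, and 14, 15, 22, 25 and 26 for somata labelled KO.

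Compartment and tissue cannot be told apart in this design, nor can compartment and experiment number, and RNA input ranged lower for growth cones (0.19 to 3.1 ng) than for somata (1.8 to 3.1 ng). Marker RNAs of other cells moved with compartment. Summed marker levels (CPM of the library total) for 6 astrocyte genes were 1507 to 2207 in growth cones and 21.3 to 288 in somata, with all 6 detected in each group. For 7 oligodendrocyte-lineage genes they were 516 to 2239 against 57.4 to 100.3, and for 7 interneuron genes 527 to 713 against 11.4 to 62.2, again with none at 0. Genes of vessels, smooth muscle and blood (9 genes) summed to 243 to 549 against 0.31 to 60.9, and those of choroid plexus and meninges (6 genes) to 356 to 549 against 0.17 to 8.99, with Kl at 0 in WT somata. Radial glia and cycling-cell genes (6) summed to 144 to 317 against 15.1 to 52.8. Hindbrain and spinal cord genes (10) summed to 29.9 to 176 against 0.03 to 2.16. Of these 10, Chat was at 0 in WT growth cones and in both soma groups, Hoxb3 in both soma groups, and Hoxb8 and Slc6a5 in somata labelled KO. Microglia genes (6) overlapped, at 12.2 to 90.2 against 2.84 to 88.2. The RNAs usually retained in nuclei (5) overlapped too in sum, at 177 to 1267 against 233 to 806, with Neat1 at 0 in WT somata. Its members went both ways. Snhg11 was higher in every growth cone library, at 19.6 to 190 CPM against at most 18.9 CPM in somata. In both genotypes the medians of Meg3 were also higher in growth cones, and those of Malat1 and Miat were lower. The 9 marker genes of subcerebral projection neurons were all detected in every group and summed to 740 to 1043 in growth cones. In somata they summed to 2147 to 2397 in WT and to 2640 to 2891 in libraries labelled KO, which did not overlap. This sum includes Bcl11b itself, with soma medians of 711 CPM in WT and 1065 CPM where labelled KO. Its members went both ways between genotypes. Soma medians of Bcl11b, Fezf2, Sox5, Tox and Etv1 were higher where labelled KO, and those of Ldb2, Crym, Pcp4 and Crim1 were lower. Crym fell from 96.3 to 238 CPM in WT to 18.6 to 56.2 CPM. Pcp4, 1 of these 9, went the other way between compartments in both genotypes. Its medians were 359 CPM in WT growth cones against 34.7 CPM in WT somata, and 287 against 11.1 CPM in libraries labelled KO. Crym did so in libraries labelled KO, at 61.0 to 163 CPM in growth cones against 18.6 to 56.2 CPM in somata. In WT the median of Crym was lower in growth cones, at 84.4 against 206 CPM. The part of these RNAs in the compartment differences below was not tested, and fewer cells of a type and less RNA per cell cannot be told apart in such bulk samples.

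The first comparison asked how these RNAs differ between growth cones and somata of the same genotype. In WT, 7 of the 10 genes passed the test (edgeR quasi-likelihood F test, Benjamini-Hochberg adjusted p under 0.05 over all 15128 genes tested): Actb, Actg1, Cfl1 and Dbn1 were lower in growth cones, and Pfn1, Basp1 and Marcks were higher. Of all genes tested, 42.8% passed, 23.1% higher and 19.7% lower. Among libraries labelled KO the same 7 genes passed in the same direction and Pfn2 was also higher, which made 8 of 10 against 38.6% of 15410 genes, 21.6% higher and 17% lower. The median log2 fold change of the 10 genes was -0.11 in WT, against 0.07 for all genes tested, and -0.15 among those labelled KO, against 0.11. These genes, grouped by the roles of their proteins in growth cones, were thus not uniformly high in growth cone RNA. The compartments did not overlap for 5 of the 10 genes in WT, against 37.6% of all genes, and for 8 of 10 among those labelled KO, against 36.2%. The genotypes share no library in these comparisons. Because the 10 genes were chosen with earlier results of these data known, their shares beside those of all genes are descriptions only.

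**Figure D1:**
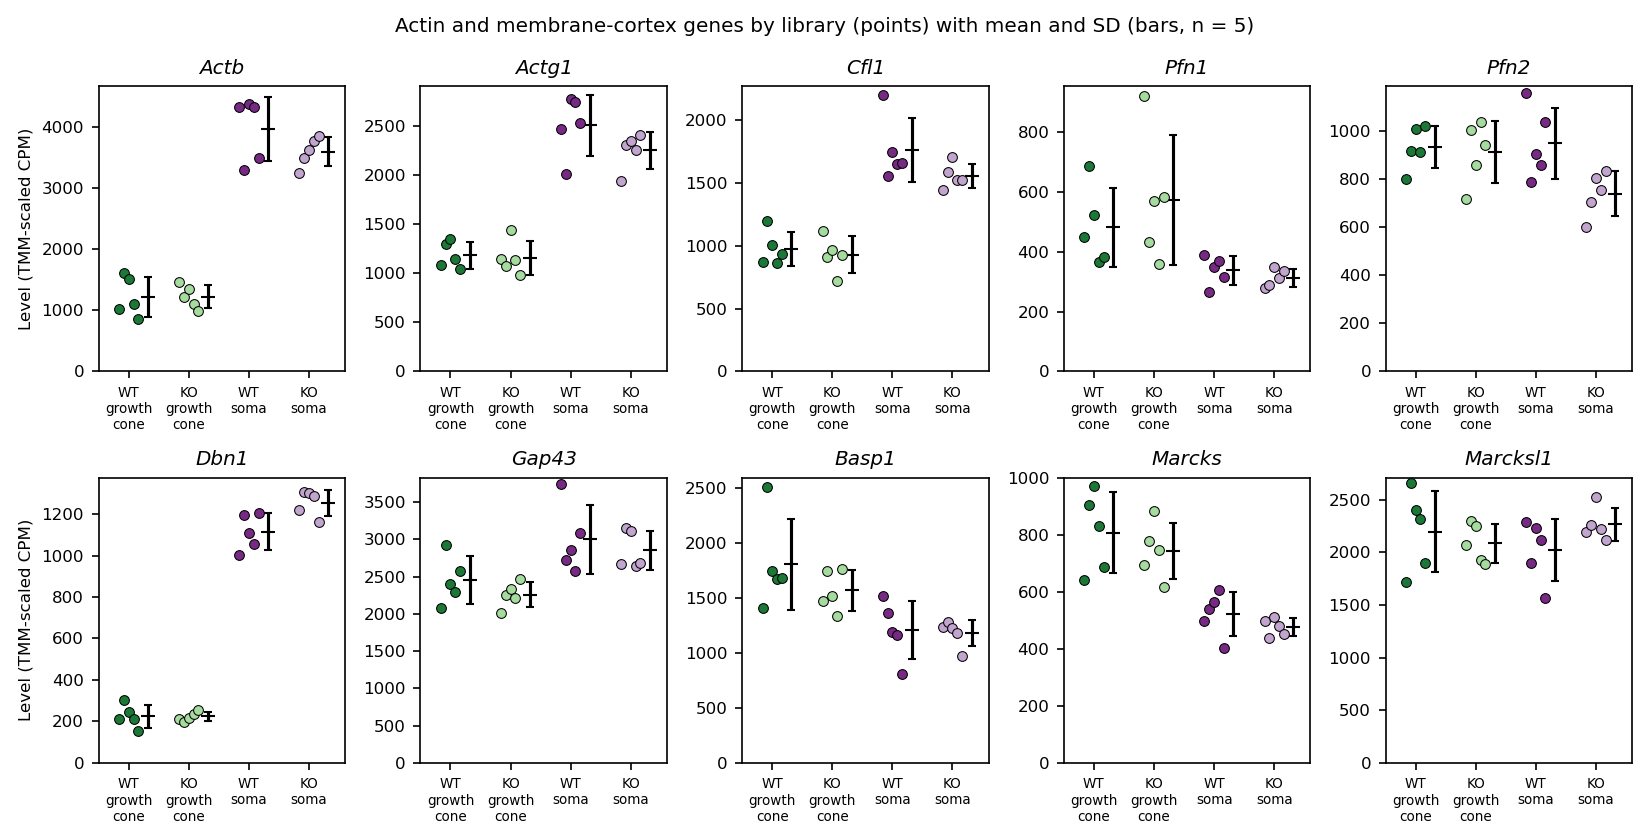
Level of each of the 10 genes in TMM-scaled CPM (vertical axis, from 0) for 5 libraries in each of 4 groups; points are libraries and bars are the mean and SD. Dbn1, Actb, Actg1 and Cfl1 sit lower in all 10 growth cone libraries than in any soma library, whereas Marcks sits higher in every growth cone library.

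Beta-actin and gamma-actin, encoded by Actb and Actg1, are the near-identical actins of non-muscle cells. In growth cones Actb stood at 1026, 1608, 1511, 1102 and 849.6 CPM in WT and at 1459.8, 1218, 1350.2, 1091 and 988 CPM in libraries labelled KO. Its soma levels were 4322, 3296, 4365, 4329 and 3481 CPM in WT and 3243, 3485, 3617, 3767 and 3849.9 CPM in those labelled KO. Every soma library was above every growth cone library. Actb was lower in growth cones by a log2 fold change of -1.66 ± 0.18 (SE, n = 5 per group, adjusted p = 2.16e-05), or 3.15-fold, in WT and by -1.47 ± 0.13 (adjusted p = 7.46e-06), or 2.77-fold, among those labelled KO.

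Actg1 was 1080.3, 1296, 1343, 1138 and 1038 CPM in WT growth cones and 1138, 1066, 1436, 1133 and 975 CPM in growth cones labelled KO. Somata held 2469.6, 2004, 2772, 2740.4 and 2530.0 CPM of it in WT and 1931, 2299.9, 2344, 2255 and 2406 CPM where labelled KO. The compartments did not overlap. The fall was smaller than for Actb, with log2 fold changes of -1.04 ± 0.12 (adjusted p = 3.69e-05) in WT and -0.89 ± 0.12 (adjusted p = 0.000153) in libraries labelled KO. The 5 near copies of Actg1 with at least 95% identity over 200 bases or more, Gm12715, Gm8399, Actg-ps1, Gm16385 and Gm8543, together had 3.88% of its counts. The Actb and Actg1 coding sequences are identical at 1000 of 1128 positions (88.7%), with a longest shared run of 62 bases, and how reads fitting both were counted is not given in the sources used here.

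The shift between both actins was also seen within libraries, where no scaling enters. The ratio of Actb to Actg1 counts was 0.949, 1.24, 1.13, 0.968 and 0.818 in WT growth cones and 1.75, 1.64, 1.57, 1.58 and 1.38 in WT somata. In libraries labelled KO it was 1.28, 1.14, 0.940, 0.963 and 1.01 in growth cones and 1.68, 1.52, 1.54, 1.67 and 1.60 in somata. Growth cones thus held about equal counts of both, whose exon lengths are 2679 and 2658 bases, and all somata held more Actb. The mean log2 ratio differed by -0.65 in WT and by -0.59 in those labelled KO, each with an exact permutation p of 0.00794 (two-sided, the smallest that 5 against 5 can give), or 0.0212 after adjustment over the 16 tests of 4 ratios.

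Cfl1 encodes cofilin-1, which severs and depolymerises actin filaments. Its levels were 869, 1195, 1006, 862 and 939 CPM in WT growth cones and 1121, 915, 968, 716 and 930.0 CPM in growth cones labelled KO. They were 2200.4, 1557, 1747, 1649 and 1661 CPM in WT somata and 1447, 1585, 1705, 1524 and 1528 CPM in somata labelled KO. All growth cone libraries lay below all somata, among which WT experiment 12 was highest. The log2 fold change was -0.81 ± 0.13 (adjusted p = 0.000445) in WT and -0.66 ± 0.13 (adjusted p = 0.00208) among those labelled KO. Exons of Cfl1 overlap those of Snx32, on the other strand, by 468 bases, and Snx32 and the copy Gm6180 together had 4.38% of the counts of Cfl1, so reads of these genes may not be separable.

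Profilin-1 and profilin-2 are the ubiquitous and the brain-enriched forms of the monomer-loading protein. Pfn1 stood at 448, 689, 525, 366 and 383 CPM in WT growth cones and at 923, 433, 571, 358 and 583 CPM in those labelled KO. Soma levels of Pfn1 were 389, 265, 349.9, 369 and 315 CPM in WT and 279, 289, 349, 311 and 337 CPM among those labelled KO. Growth cones varied widely, up to 689 CPM in WT experiment 8 and 923 CPM in experiment 7 labelled KO, and the WT compartments overlapped. Pfn1 was higher in growth cones by 0.56 ± 0.18 (adjusted p = 0.0281) in WT and by 0.97 ± 0.23 (adjusted p = 0.00651), without overlap, in libraries labelled KO. The WT call did not survive leaving out experiment 8 or 9 of the growth cones or experiment 14, 22 or 26 of the somata (adjusted p from 0.0506 to 0.0745).

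For Pfn2 the WT values were 800.4, 915, 1006, 913 and 1020.5 CPM in growth cones and 1157, 787, 903, 859 and 1035 CPM in somata. Libraries labelled KO gave 715, 1001, 857, 1036 and 942 CPM in growth cones and 599, 703, 804, 753 and 832 CPM in somata. Compartments overlapped in both genotypes. In WT the log2 fold change was 0.02, with a 95% interval from -0.26 to 0.30 (adjusted p = 0.918). Among those labelled KO, Pfn2 was higher in growth cones by 0.38 ± 0.13 (adjusted p = 0.0338), a call lost when any library other than growth cone experiment 7 was left out (adjusted p from 0.0548 to 0.103).

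Pfn2 counts were 1.33 to 2.66 times those of Pfn1 in WT growth cones and 2.33 to 3.29 times in WT somata. Libraries labelled KO ranged from 0.775 to 2.89 in growth cones and from 2.15 to 2.47 in somata. The mean log2 ratio was lower in growth cones by 0.51 in WT (difference -0.51, exact permutation p = 0.0397, adjusted p = 0.0705) and differed by -0.50 among those labelled KO (exact permutation p = 0.143, adjusted p = 0.229). Neither difference passed, and the ranges overlapped in both.

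Dbn1, encoding drebrin, had the largest difference of the 10 genes. WT growth cones held 212, 305, 245, 209 and 151 CPM and growth cones labelled KO 211, 196, 218, 237 and 256 CPM. Its soma levels were 1001, 1197, 1110.1, 1055 and 1208 CPM in WT and 1218, 1309, 1301, 1288 and 1163 CPM in those labelled KO. The highest growth cone library, at 305 CPM, was far below the lowest soma library, at 1001 CPM. The log2 fold change was -2.27 ± 0.17 (adjusted p = 1.45e-06), or 4.81-fold lower, in WT and -2.41 ± 0.10 (adjusted p = 1.2e-07), or 5.31-fold lower, in libraries labelled KO. Only 4.9% of genes tested in WT and 4.05% of those tested among libraries labelled KO had a lower log2 fold change.

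Gap43 encodes the growth-associated protein GAP-43, a calmodulin-binding marker of growing axons. It was 2082, 2929, 2396, 2288 and 2572 CPM in WT growth cones and 2015, 2258, 2329, 2217 and 2467 CPM in growth cones labelled KO. In somata its level was 3746, 2719, 2861, 2579 and 3092 CPM in WT and 2668, 3153, 3115, 2645 and 2677 CPM among those labelled KO. The WT compartments overlapped, while those labelled KO did not, with every growth cone library lower. Neither comparison passed the test. The log2 fold change was -0.24 (95% interval -0.53 to 0.04, adjusted p = 0.159) in WT and -0.26 (-0.47 to -0.05, adjusted p = 0.0547) among those labelled KO, so a growth cone level under 0.692 of the soma level lay outside both intervals.

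BASP1 is a relative of GAP-43 in function rather than in sequence, and also sits in the inner membrane leaflet. Basp1 RNA was at 1413, 2513, 1745, 1675 and 1683 CPM in WT growth cones and 1472, 1748, 1521, 1341 and 1769 CPM in growth cones labelled KO. Soma values were 1516, 1362, 1195, 1159 and 810.2 CPM in WT and 1239, 1280.4, 1229, 1181 and 977 CPM in those labelled KO. WT compartments overlapped through the high soma library of experiment 12, and those labelled KO were separate. Basp1 was higher in growth cones by 0.62 ± 0.19 (adjusted p = 0.0185) in WT and by 0.49 ± 0.12 (adjusted p = 0.00593) among those labelled KO.

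The ratio of Gap43 to Basp1 counts moved further than either gene. It was 1.47, 1.17, 1.37, 1.37 and 1.53 in WT growth cones and 2.47, 1.996, 2.39, 2.22 and 3.82 in WT somata. In libraries labelled KO the ratio was 1.37, 1.29, 1.53, 1.65 and 1.39 in growth cones and 2.15, 2.46, 2.54, 2.24 and 2.74 in somata. All growth cone ratios lay below all soma ratios, and WT somata of experiment 26 stood highest. The difference of mean log2 ratios was -0.87 in WT and -0.74 in those labelled KO (exact permutation p = 0.00794, adjusted p = 0.0212 for each).

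MARCKS and MARCKSL1 bind membrane phosphoinositides and actin through a basic domain that protein kinase C phosphorylates. Marcks was at 641, 906, 973, 832 and 689 CPM in WT growth cones and 694, 779, 885, 748 and 618 CPM in growth cones labelled KO. Somata had 499, 541, 566, 607 and 402 CPM in WT and 498, 437, 513, 481 and 453 CPM where labelled KO. The lowest growth cone library was above the highest soma library in each genotype. Marcks was higher in growth cones by 0.67 ± 0.15 (adjusted p = 0.00358), or 1.59-fold, in WT and by 0.72 ± 0.11 (adjusted p = 0.000412), or 1.65-fold, among those labelled KO.

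Marcksl1 did not follow Marcks. WT levels were 1719, 2656, 2397, 2319.6 and 1894 CPM in growth cones and 2289, 1894, 2227, 2116 and 1563 CPM in somata. Libraries labelled KO held 2073, 2294, 2247, 1928 and 1887 CPM in growth cones and 2197, 2255, 2529.9, 2219 and 2121 CPM in somata. The ranges overlapped in both genotypes. The log2 fold change was 0.17 (95% interval -0.16 to 0.49, adjusted p = 0.395) in WT and -0.04 (-0.26 to 0.18, adjusted p = 0.810) among those labelled KO.

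Within libraries the ratio of Marcks to Marcksl1 counts was 0.373, 0.341, 0.406, 0.359 and 0.364 in WT growth cones and 0.218, 0.286, 0.254, 0.287 and 0.257 in WT somata. Among those labelled KO it was 0.335, 0.340, 0.394, 0.388 and 0.327 in growth cones and 0.227, 0.194, 0.203, 0.217 and 0.214 in somata. Every growth cone ratio was above every soma ratio. Mean log2 ratios were higher in growth cones by 0.51 in WT and by 0.76 in libraries labelled KO (exact permutation p = 0.00794, adjusted p = 0.0212 for each).

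**Figure D2:**
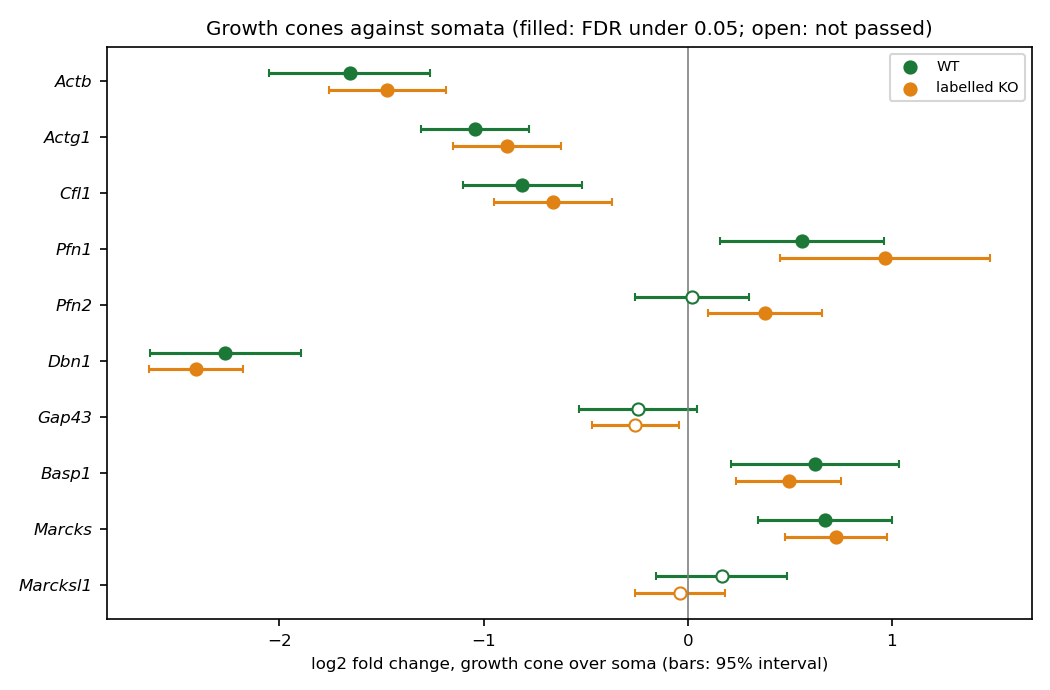
Fitted log2 fold change of growth cones over somata (horizontal axis) for each gene in WT (green) and in libraries labelled KO (orange); bars are 95% intervals, filled points have an adjusted p under 0.05. Dbn1 lies furthest to the left at -2.27 and -2.41, and the points of Pfn1, Basp1 and Marcks are filled and lie to the right of 0 in both genotypes.

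**Figure D3:**
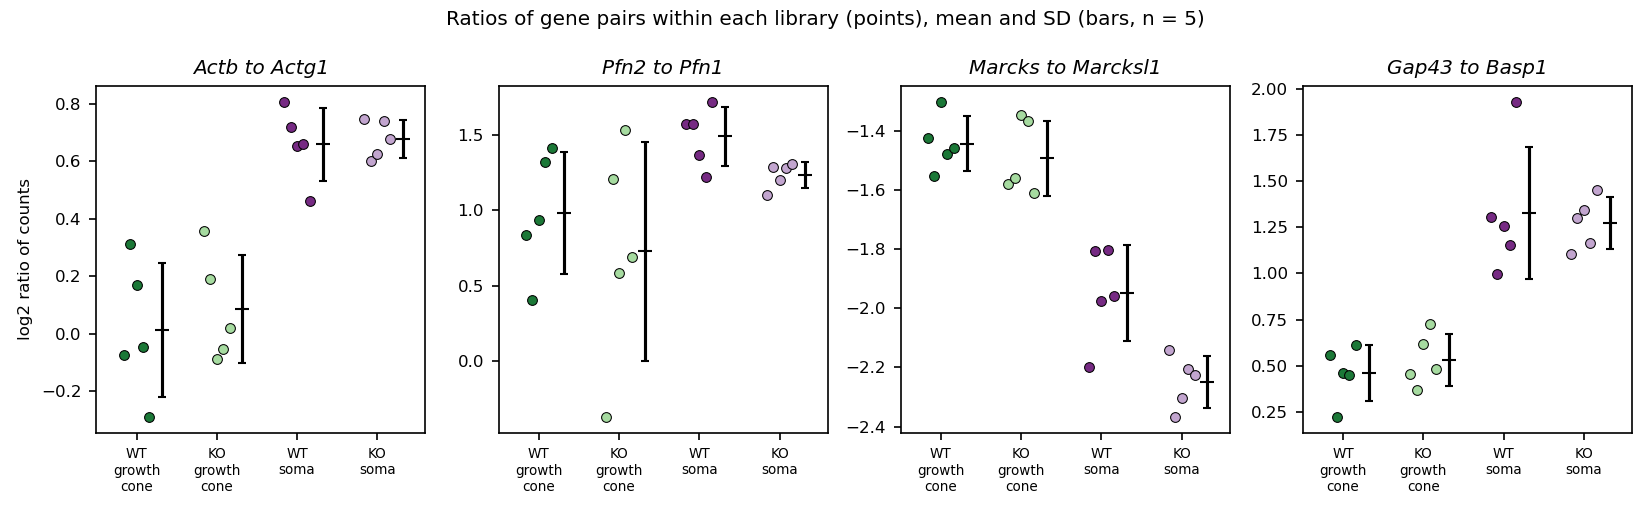
The log2 ratio of the counts of paired genes within each library (vertical axis), by group, with mean and SD; the axes do not start at 0. Growth cones and somata separate for Actb to Actg1, Marcks to Marcksl1 and Gap43 to Basp1, and overlap for Pfn2 to Pfn1.

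The order of the genes by level per kilobase of exon differed between compartments. In WT somata Gap43 led at 1969 ± 301 CPM per kb (SD, n = 5), the seventh highest of all genes, followed by Actb at 1478 ± 196, Marcksl1 at 1257 ± 184 and Actg1 at 942 ± 116. Cfl1 (620 ± 89.2) and Basp1 (602 ± 132) came next, then Pfn2 (268 ± 41.7), Dbn1 (247 ± 19.8), Pfn1 (140.3 ± 20.3) and Marcks (129 ± 19.3). Of these neighbours, the ranges over libraries were separate only between Gap43 and Actb, Basp1 and Pfn2, and Dbn1 and Pfn1. WT growth cones kept Gap43 first, at 1611 ± 209.9 CPM per kb, with Marcksl1 at 1369 ± 239 and Basp1 at 899 ± 207. The actins followed at 455 ± 122 for Actb and 444 ± 50.4 for Actg1, then Cfl1 (342 ± 48.0), Pfn2 (263 ± 24.97), Pfn1 (200.5 ± 54.6), Marcks (199.7 ± 34.8) and Dbn1 (49.7 ± 12.5). Here the ranges were separate between Basp1 and Actb, Cfl1 and Pfn2, and Marcks and Dbn1. Among all genes ranked by mean CPM per kb, Actb moved from rank 9 in WT somata to rank 91 in WT growth cones, Dbn1 from 128 to 1270 and Basp1 from 29 to 24. The top of the order was thus held by membrane-cortex genes in growth cones and shared with the actins in somata.

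In libraries labelled KO the order of means in growth cones was that of WT, from Gap43 (1482 ± 108 CPM per kb) to Dbn1 (49.5 ± 5.17). Ranges of neighbours there were separate only between Marcksl1 and Basp1, Basp1 and Actb, and Marcks and Dbn1. Actb was above Actg1 in 2 of 5 WT growth cone libraries and 3 of 5 labelled KO, and Pfn1 was above Marcks in as many. In somata labelled KO, Gap43 (1872 ± 169.7) was followed by Marcksl1 (1411 ± 97.4) and Actb (1341 ± 89.7), whose ranges overlapped, and Basp1 (588 ± 59.6) stood above Cfl1 (548 ± 33.7) with overlapping ranges. Dbn1 (278 ± 13.9) was above Pfn2 (208 ± 26.03) there, in every library. Together the 10 genes made up 1.08% to 1.51% of all counts in WT growth cones and 1.47% to 1.87% in WT somata. Their share was 1.17% to 1.36% in growth cones labelled KO and 1.49% to 1.64% in somata labelled KO.

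The second comparison asked whether the libraries labelled KO differ from WT in these genes. In growth cones 0 of the 10 genes passed (adjusted p = 0.999 for each), as did 0% of all 15419 genes tested. At an unadjusted p under 0.05 there were 0 of the 10 and 329 genes in all (2.13%), and DESeq2 called 11 genes in all and 0 of the 10, limma-voom 0 and 0. The estimates were small but the intervals allow moderate changes. Pfn1 had the widest, with a log2 fold change of 0.27 and a 95% interval from -0.26 to 0.80. Basp1 was at -0.18 (-0.51 to 0.16), Gap43 at -0.10 (-0.36 to 0.16), Actb at 0.03 (-0.36 to 0.42) and Dbn1 at 0.02 (-0.36 to 0.41). Actg1, Cfl1, Pfn2, Marcks and Marcksl1 had estimates from -0.10 to -0.01 with intervals within -0.42 and 0.30. WT and KO-labelled ranges overlapped for all 10 genes, and were separate for 0.48% of all genes.

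In somata 0 of the 10 genes passed, against 0.731% of 14911 genes tested (109 genes), and 0 of the 10 passed with DESeq2 (402 genes in all) or limma-voom (138 genes). Unadjusted p-values under 0.05 were found for 2 of the 10 and for 8.57% of all genes. These were Pfn2, with a log2 fold change of -0.36 ± 0.12 (95% interval -0.62 to -0.09, adjusted p = 0.335), and Dbn1, at 0.17 ± 0.07 (0.02 to 0.33, adjusted p = 0.503). For both, the libraries of the 2 groups overlapped, and groups were separate for 3.13% of all genes and 0 of the 10. The other 8 genes had estimates from -0.18 (Cfl1) to 0.17 (Marcksl1), and their intervals lay between -0.39 and 0.39.

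Of the within-library ratios, 1 of 8 tests between genotypes passed. The ratio of Marcks to Marcksl1 was lower in somata labelled KO, at a geometric mean of 0.210 against 0.259 in WT, with a mean log2 ratio -0.30 away from WT (exact permutation p = 0.0159, adjusted p = 0.0363). Ranges overlapped, at 0.194 to 0.227 against 0.218 to 0.287, and the adjusted p was 0.0705 when any 1 of 8 of the 10 libraries was left out. In growth cones the same ratio differed by -0.05 (exact permutation p = 0.484, adjusted p = 0.646), and the difference between the compartments in this change was not tested for the ratio. Pfn2 to Pfn1 in somata had an exact permutation p of 0.0397 (adjusted p = 0.0705), and the other 6 adjusted p-values ran from 0.646 to 0.849.

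**Figure D4:**
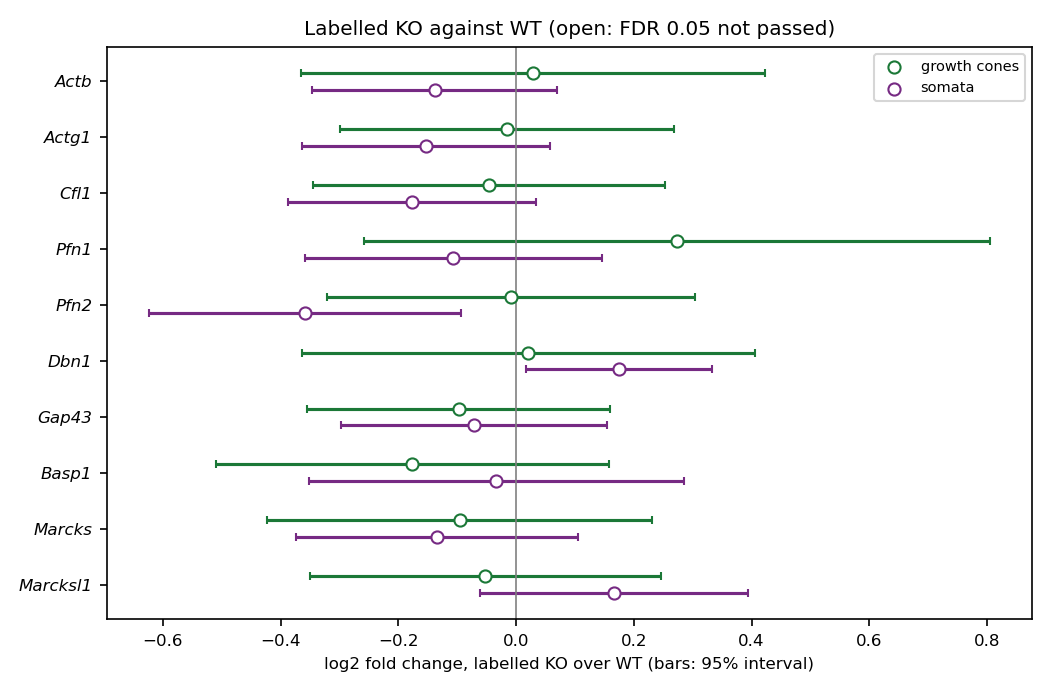
Fitted log2 fold change of libraries labelled KO over WT (horizontal axis) in growth cones (green) and somata (purple); bars are 95% intervals and all points are open because no gene passed. The widest interval is that of Pfn1 in growth cones, -0.26 to 0.80.

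An interaction between genotype and compartment, fitted over all 20 libraries, passed for 0 of the 10 genes and for 0.0397% of 17645 genes (7 genes). At an unadjusted p under 0.05 it held for 0 of the 10 and for 6.98% of all genes, and 0 of the 10 passed with DESeq2 (273 genes in all) or limma-voom (5 genes). The lowest adjusted p was that of Pfn2 (0.783), with a genotype change in growth cones minus that in somata of 0.33 on the log2 scale (95% interval -0.04 to 0.69). Pfn1 had 0.37 (-0.27 to 1.01) and Marcksl1 -0.24 (-0.59 to 0.12). So the compartment difference of Pfn2, called in libraries labelled KO and not in WT, was not shown to differ between the genotypes, and neither was that of Pfn1, called higher in both.

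Other genes of the same machinery were taken as 7 lists of 94 genes. The lists were chosen with earlier results of these data known, so their shares beside those of all genes are descriptions only. In WT, 88 could be tested, of which 22 were higher and 30 lower in growth cones (59.1%, against 42.8% of all genes). Among those labelled KO, 90 were tested, with 21 higher and 30 lower (56.7%, against 38.6%). Of these calls 44 were shared in the same direction, 84.6% of the WT calls and 86.3% of the others, and 0 were opposite. Fold changes in this account are log2 values of growth cones over somata, first for WT and then for libraries labelled KO. Genes were named in each genotype by lowest p. Unless stated, a gene given for WT alone or for libraries labelled KO alone may have passed in the other too.

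Genes that keep actin monomers in reserve had 2 of 4 members (50%) higher in both genotypes. Thymosin genes Tmsb10 (3.19 ± 0.29 and 3.30 ± 0.34) and Tmsb4x (1.10 ± 0.20 and 1.29 ± 0.27), which encode peptides that sequester monomers, were those 2. The cofilin pathway list had 2 of 10 higher and 2 lower in each genotype. The share called, 40% in each, lay near that of all genes (42.8% in WT and 38.6% in libraries labelled KO). Cap1, for a protein that recycles monomers with cofilin (3.18 ± 0.27 and 3.08 ± 0.26), and Cfl2, for the muscle-type cofilin (0.90 ± 0.13 and 0.95 ± 0.16), rose. Dstn, for the related depolymerising factor ADF (-0.83 ± 0.15 and -0.99 ± 0.16), and Wdr1, for a cofilin cofactor (-0.60 ± 0.21, adjusted p = 0.0390, and -0.85 ± 0.19), were lower, as Cfl1 was. Members of the cofilin family thus went both ways.

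The Arp2/3 complex nucleates branched filaments and is switched on by the WAVE complex. Of the 19 genes listed for both, 5 were higher and 9 lower in WT, and 6 and 8 in libraries labelled KO (73.7% called in each). The subunit genes Arpc1b (4.37 ± 0.31 and 4.57 ± 0.57) and Arpc5l (1.53 ± 0.22 and 1.60 ± 0.16) were higher. The core subunit gene Actr2 (-1.55 ± 0.19 and -1.45 ± 0.14) was lower, with the WAVE complex genes Cyfip2 in WT (-1.57 ± 0.24) and Wasf1 in libraries labelled KO (-1.03 ± 0.10). Subunits of 1 complex were therefore found on both sides.

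Formins and Ena/VASP proteins extend unbranched filaments. In WT 4 of 10 were higher and 1 lower, and in libraries labelled KO 4 of 12 and 1. The share called was 50% and 41.7%, against 42.8% and 38.6% of all genes. Evl, an Ena/VASP gene, was higher in both (2.15 ± 0.11 and 2.36 ± 0.19), at 879 CPM in WT growth cones against 204 CPM in WT somata. Fmnl2 was higher in WT (1.86 ± 0.36), and Daam1 was lower (-1.26 ± 0.25, and -1.10 ± 0.38 with an adjusted p of 0.0400). Daam2 was called higher among those labelled KO at low levels, 3.97 ± 2.996 CPM in growth cones against 0.037 ± 0.083 CPM in somata (SD, n = 5). It passed the filter on low counts there through growth cones alone, since no soma library labelled KO held more than 7 counts.

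Bundling, capping and motor genes had more members lower than higher. In WT 6 of 25 were higher and 13 lower (76% called), and in libraries labelled KO 4 of 24 and 13 (70.8%). Coro1c, a coronin gene, was lower in both (-2.19 ± 0.15 and -2.07 ± 0.20), and so were Tpm3 in WT (-1.58 ± 0.15) and Fscn1, the gene of the filopodial bundler fascin, in libraries labelled KO (-1.04 ± 0.12). Myl12a, a myosin regulatory light chain gene (3.37 ± 0.40 and 2.64 ± 0.38), and Tpm1, a tropomyosin gene (1.71 ± 0.25 and 2.64 ± 0.26), were higher.

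The membrane-cortex and phosphoinositide list, the nearest in function to Gap43 and Marcks, had 1 of 18 higher and 5 lower in WT and 2 of 19 and 6 in libraries labelled KO. The share called, 33.3% in WT and 42.1% in libraries labelled KO, lay near that of all genes (42.8% and 38.6%). Gprin1 (-1.09 ± 0.16 and -1.28 ± 0.12) and the ankyrin gene Ank2 (-1.35 ± 0.25 and -1.41 ± 0.21) were lower in both. Prkca, for a protein kinase C that phosphorylates MARCKS and GAP-43, passed as higher in WT alone (1.20 ± 0.36, adjusted p = 0.0184). The ezrin gene Ezr passed as higher in libraries labelled KO alone (2.07 ± 0.55, adjusted p = 0.0110). Pip5k1b, for a phosphoinositide kinase, had no count in any soma library and 6.35 ± 3.20 CPM in growth cones labelled KO, at least 83.4-fold above a floor of 3 counts per soma library. It passed the filter on low counts there through growth cones alone. In WT it was not tested, and at 3.08 ± 5.24 CPM in growth cones, an SD above the mean, it was at least 28.3-fold above the floor.

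Of the 4 other actin isoform genes, 2 could be tested, and both were far below Actb in every group. Acta1, the skeletal muscle actin gene, passed in both genotypes. It rose by 1.78 ± 0.50 (adjusted p = 0.0124) and 3.28 ± 0.62 (adjusted p = 0.00138), and in WT it stood at 31.6 ± 20.3 CPM in growth cones against 9.47 ± 4.33 CPM in somata (SD, n = 5). Acta2, the smooth muscle actin gene and also 1 of the vessel markers given above, passed in WT alone (5.12 ± 1.70, adjusted p = 0.0288), at 0.51 to 16.2 CPM in growth cones and 0 to 0.92 CPM in somata. It passed the filter on low counts there through the growth cone libraries, since 3 of the 5 WT somata held 0 counts and another 1 count. In libraries labelled KO it had 3.38 ± 1.78 (adjusted p = 0.157). Per kilobase of exon, Acta1 reached 20.6 ± 13.2 CPM per kb in WT growth cones, against 455 ± 122 for Actb. Growth cones labelled KO held 111, 31.8, 211, 28.7 and 28.5 CPM of Acta1, highest in experiments 7 and 9, against 8.95 ± 2.62 CPM in somata. Its level there, 53.5 ± 52.1 CPM per kb, was near that of Dbn1 (49.5 ± 5.17), while Actb stood at 456 ± 71.0.

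**Figure D5:**
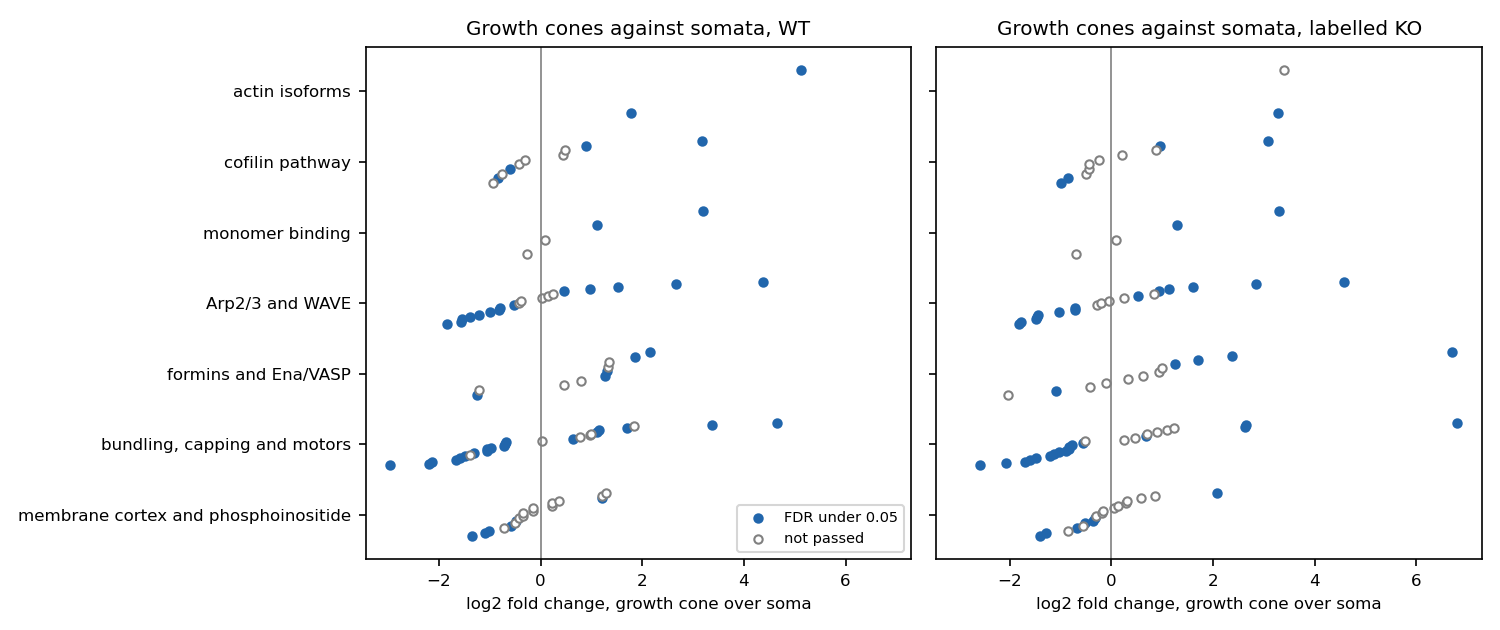
Fitted log2 fold change of growth cones over somata (horizontal axis) for the tested genes of 7 lists (rows) in WT (left) and in libraries labelled KO (right); each point is 1 gene, filled blue where the adjusted p was under 0.05, and Pip5k1b is not drawn because its soma libraries hold 0 counts. Blue points lie on both sides of 0 in the Arp2/3 and WAVE row, whereas both blue points of the monomer-binding row lie to the right.

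Between genotypes, 0 of 90 genes of these lists passed in growth cones, where 0% of all genes passed, and 0 of 91 in the interaction. In somata 4 of 87 passed (4.6%, against 0.731% of all genes), a description only for lists chosen with earlier results known. Diaph3, a formin gene, was higher in somata labelled KO (1.70 ± 0.27, adjusted p = 0.0114). The tropomyosin gene Tpm1 (-0.94 ± 0.19, adjusted p = 0.0454), the plastin gene Pls3 (-0.79 ± 0.14, adjusted p = 0.0270) and Nrgn (-1.19 ± 0.18, adjusted p = 0.00917) were lower. Nrgn encodes neurogranin, which binds calmodulin through the same kind of motif as GAP-43. These directions, too, refer to labels that Bcl11b itself does not bear out.

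The genes whose profile over the 20 libraries was most like that of each of the 10 were named by Pearson correlation of log2 CPM among the 11328 other genes whose mean reached 5 CPM, with the 10 themselves left out. The libraries fall into compartments, which all these correlations share, so r is a description only. Outside the 10, Actb and Actg1 had the same closest genes, the tubulin genes Tubb3 (r = 0.99 for each) and Tubb5 (r = 0.98 for each). The correlation between Actb and Actg1 (r = 0.98) lay between those with these tubulin genes. Dbn1 was closest to Plk2 and Psmd2 (r = 0.99 for each), and Cfl1 to Prdx1 and Ppia (r = 0.96 for each). Pfn1 was closest to Gstp1 (r = 0.94) and Ndufb11 (r = 0.92), and Marcks to Cdk5r1 (r = 0.94) and Rtl8b (r = 0.93). For Basp1 they were Phldb1 (r = 0.90) and Scand1 (r = 0.87), and for Gap43 Calm2 (r = 0.89) and Ywhae (r = 0.88). Pfn2 (Egr3, r = 0.76, and Homer2, r = 0.74) and Marcksl1 (Neurod2, r = 0.73, and Zfp30, r = 0.71) had weaker matches than the other genes.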

How the data were processed

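Total RNA from growth cones and somata was turned into cDNA with SMART-seq v4 and into libraries with Nextera XT, per the labels' protocols. The submitters' processing notes name Trimmomatic 0.39, STAR 2.7.1a and featureCounts 1.5.0. The authors deposited unscaled counts of reads per gene, in 1 table of 20 libraries. The submitters' processing notes name GRCm39, but gene coordinates in the table match GRCm38: the exons of 54435 of 55487 genes (98.1%) equal those in GENCODE M21, which gave symbols for 55141. The table's length column, per the file headers, is a gene's exon length in bases and served for levels per kilobase. Whether strand was used, and how reads with several matches were counted, is not given in the sources used here. There were 0 unmatched columns and 0 entries naming no gene.

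Libraries were grouped by title. Counts were tested with edgeR 4.0.16 in R 4.3.3 (filterByExpr with a minimum count of 10, TMM, quasi-likelihood F test, Benjamini-Hochberg adjustment over all genes tested, threshold 0.05), with only the 2 groups compared in each fit and all 20 libraries in the interaction. Adjusted p-values of genes are from this test. SE were derived from the F statistics, and intervals are at 95%. Ratios of counts within a library were tested by exact permutation over the 252 regroupings of 5 against 5 (scipy 1.17.1), two-sided. The fits were tested on simulated counts. Near copies were found with blastn 2.17.0. Intervals cover the spread between libraries, and without molecular identifiers in the protocol counts are not independent molecules.

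Alternatives were other scalings (DESeq2 size factors, upper quartile, library totals), DESeq2 1.42.0, limma-voom (limma 3.58.1), no filter, all 20 libraries in 1 fit, the experiment number as a block, and leaving out each library. The 10 genes, the lists of other genes and the marker lists were chosen with earlier results of these data known. Named from each list were in each direction the genes of lowest p that passed the threshold (at most 2), and for each of the 10 genes the 2 genes outside the 10 with the highest correlation. Myl12b was left out because its symbol matched 2 entries.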

Additional observations from a re-analysis of the deposited data

How the results depend on the processing

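Between growth cones and somata, the calls of Actb, Actg1, Cfl1, Dbn1, Basp1 and Marcks kept their direction and side of the threshold in both genotypes under all 17 alternatives, and so did Pfn1 among libraries labelled KO. The number of the 10 genes called ran from 6 to 7 in WT and from 7 to 9 among libraries labelled KO. The WT call of Pfn1 was also lost without a filter (adjusted p = 0.0589) and with all 20 libraries in the fit (0.0620), and that of Pfn2 among those labelled KO likewise (0.110 and 0.0568). Gap43 became lower at the threshold in WT with all 20 libraries (-0.29, adjusted p = 0.0361). Among those labelled KO, Gap43 did so in 8 of 17 alternatives: with DESeq2 (0.0315), limma-voom (0.00890), no filter (0.0170), all 20 libraries (0.0162), and without growth cone experiment 7, 10 or 11 or soma experiment 26 (0.0297, 0.0432, 0.0402 and 0.0463). Upper-quartile scaling moved the median of all genes from 0.07 to 0.28 in WT and from 0.11 to 0.31 among those labelled KO.

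Signs turned only for values that had not passed. WT Pfn2 became -0.020 without a filter and -0.023 with all 20 libraries, and ranged from -0.027 to 0.18 with a library left out. Marcksl1 in libraries labelled KO became 0.16 with upper-quartile scaling and 0.069 with library totals. With a library left out, changes between genotypes in growth cones ranged from -0.072 to 0.13 for Actb, -0.090 to 0.044 for Actg1, -0.12 to 0.021 for Cfl1, -0.088 to 0.14 for Dbn1, -0.078 to 0.067 for Pfn2 and -0.13 to 0.0067 for Marcksl1. In somata they ranged from -0.15 to 0.063 for Basp1 and -0.12 to 0.023 for Gap43, and in the interaction from -0.057 to 0.13 for Marcks and -0.14 to 0.013 for Gap43. Log2 ratios between genotypes ranged from -0.0046 to 0.15 (Actb to Actg1) and -0.45 to 0.020 (Pfn2 to Pfn1) in growth cones, and from -0.032 to 0.055 (Actb to Actg1) and -0.14 to 0.095 (Gap43 to Basp1) in somata. Marcks to Marcksl1 ranged from -0.36 to -0.26 in somata, with the adjusted p under 0.05 in 2 of 10 cases, and Pfn2 to Pfn1 from -0.32 to -0.20, passing only without WT experiment 25 (adjusted p = 0.0317).

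Counts of all genes called between genotypes moved more. In growth cones they were 11 with DESeq2 and 7 with all 20 libraries. In somata they were 402 with DESeq2 and 30 with all 20 libraries, and 67 to 107 with a library left out, the lowest without experiment 22 of those labelled KO (67) or of WT (68). For the interaction they were 273 with DESeq2 and 5 to 12 with a library left out, the highest without growth cone experiment 7 of WT (12) or of those labelled KO (11). The causes were not tested.

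Libraries with the same experiment number resembled each other only weakly. Their deviations from the group means correlated at 0.0168 to 0.102 over 5 pairs in growth cones, against -0.0725 to 0.0601 for unlike numbers. In somata the values were -0.0136 to 0.107 over 4 pairs, against -0.132 to 0.0885. In each compartment 1 pair was above 0.1. Of the WT libraries, 3 of 5 and 3 of 4 correlated best with their own number. Whether the numbers pair the libraries is not settled by these values, and the main tests took no account of the numbers. With the experiment number as a replicate block, 0 of the 10 genes passed in growth cones, somata or the interaction, and all genes called were 0, 34 and 0. The block turned Basp1 in somata to 0.056 and the Marcks interaction to -0.0032, and left the Marcks to Marcksl1 ratio in somata at -0.33 without a pass, where 4 pairs cannot give an exact sign-flip p below 0.125. No paired analysis was possible between compartments because they share no experiment number.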
